A study of Mus musculus with 6 samples.

Results

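Voltage-gated sodium and calcium channel genes were followed in the polysomal mRNAs of hippocampal astrocytes. The set comprised every gene named as a sodium channel α subunit (Scn followed by a number and a), a sodium channel β subunit (Scn, number, b), a calcium channel pore subunit (Cacna1), an α2δ subunit (Cacna2d), a calcium channel β subunit (Cacnb) or a γ subunit (Cacng). This gave 40 of the 22086 genes with counts. Genes entered by name, whatever their level or response, but the families were chosen with earlier results of these data known. Both groups carried the Aldh1l1:L10a-eGFP transgene, which tags ribosomes under an astrocyte promoter, on a background with both Cx43 alleles floxed (Cx43 fl/fl), and all mice were 6 weeks old. The Cx43KO mice also carried Gfap Cre, a Cre recombinase driven by the human GFAP promoter, meant to delete the floxed Cx43 gene in astrocytes, and their littermates without Cre are named Cx43FL. Tagged ribosomes were immunoprecipitated from whole hippocampi (translating ribosome affinity purification, TRAP), and 3 libraries per genotype were sequenced. How many animals entered a library is not given in the sources used here, so that p-values measure only the spread between these libraries.

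Voltage-gated sodium channels consist of a large pore-forming α subunit, which opens on depolarization and carries the upstroke of the action potential, and of single-pass β subunits that tune gating and act as adhesion molecules. Voltage-gated calcium channels are built on a pore-forming α1 subunit of the L-type (Cav1), P/Q-, N- and R-type (Cav2) or T-type (Cav3) family, joined in the Cav1 and Cav2 families by an extracellular α2δ and a cytoplasmic β subunit. Several proteins named γ subunits are better known as TARPs, which carry AMPA receptors to synapses. These genes are best known for excitability and transmitter release in neurons, whereas astrocytes do not fire action potentials and draw much of their calcium signal from internal stores.

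The libraries held 14787303 to 15391214 counts on genes in Cx43FL and 16056347 to 34733473 in Cx43KO, so that 3 counts correspond to 0.0864 to 0.203 counts per M, before scaling and for counting error only. Levels are given as CPM, the counts per M of the counts on tested genes after TMM scaling. Gja1, the gene of Cx43, had between 82.3 and 92.0 CPM in Cx43FL, against 87.2 to 98.4 CPM in Cx43KO, and these totals over the transcript do not show whether the deleted part was read. Cx43KO replicate 1 stood apart, with the highest sum over 18 neuron markers and 13663 CPM over 12 astrocyte markers against 26546 to 37973 CPM elsewhere. The neuron marker sum was 2404, 3113 and 3175 CPM in Cx43FL but 8512, 3412 and 4808 CPM in Cx43KO. This sum was thus higher in every Cx43KO library than in any Cx43FL library. Its largest members in Cx43KO replicates 2 and 3 were Snap25 (1342 and 2791 CPM) and Camk2a (715 and 747 CPM). The log2 fold change was positive for 16 of the 18 markers, with a median of 0.84, or 0.14 without Cx43KO replicate 1. For Elavl4 it was -1.21. Stmn2, Prox1 and Neurod6 lay below all Cx43FL libraries in Cx43KO replicate 3. Cx43KO replicate 1 also had 2520 CPM over 7 oligodendrocyte markers, against 568 to 943 CPM elsewhere. Microglia markers summed to 33.0 to 58.4 CPM in Cx43FL, against 82.4 to 143 CPM in Cx43KO, and endothelial and mural markers to 28.6 to 33.2 and 18.8 to 95.8 CPM. Oligodendrocyte precursor markers summed to 194 to 258 and 191 to 340 CPM. Choroid plexus and ependymal markers summed to 453 CPM in Cx43FL replicate 2 and to 9746 CPM or more in every other library. No marker of these lists was at 0 in all 6 libraries. In such bulk samples fewer cells of a type and less RNA per cell cannot be told apart, and the part that other cell types had in the channel values was not tested.

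Most channel genes were higher in Cx43KO on average, and most of that difference lay in 1 library. Of the 40 genes, 32 had enough counts to be tested, and 27 of these had a positive log2 fold change in Cx43KO (54.4% of all 13545 tested genes). Their median log2 fold change was 1.12, against 0.07 over all tested genes, and it was 0.35 without Cx43KO replicate 1. Summed over the 40 genes, the level was 563, 730 and 578 CPM in Cx43FL and 2425, 883 and 599 CPM in Cx43KO, the third Cx43KO library lying within the Cx43FL range. Taken library by library, the median of the 32 genes lay 1.84 above the Cx43FL mean on the log2(CPM + 0.5) scale in Cx43KO replicate 1, 0.52 above it in replicate 2 and -0.00 in replicate 3, against 0.02 in each for all tested genes. Cx43KO replicate 1 exceeded all Cx43FL libraries for 27 of the 32 genes (37.9% of all tested genes), replicate 2 for 15 (28.7%) and replicate 3 for 11 (30.7%). The library with the most neuron marker RNA was thus also the one with the highest channel levels, and it was the highest of the 6 for 24 of the 32 genes.

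**Figure D1:**
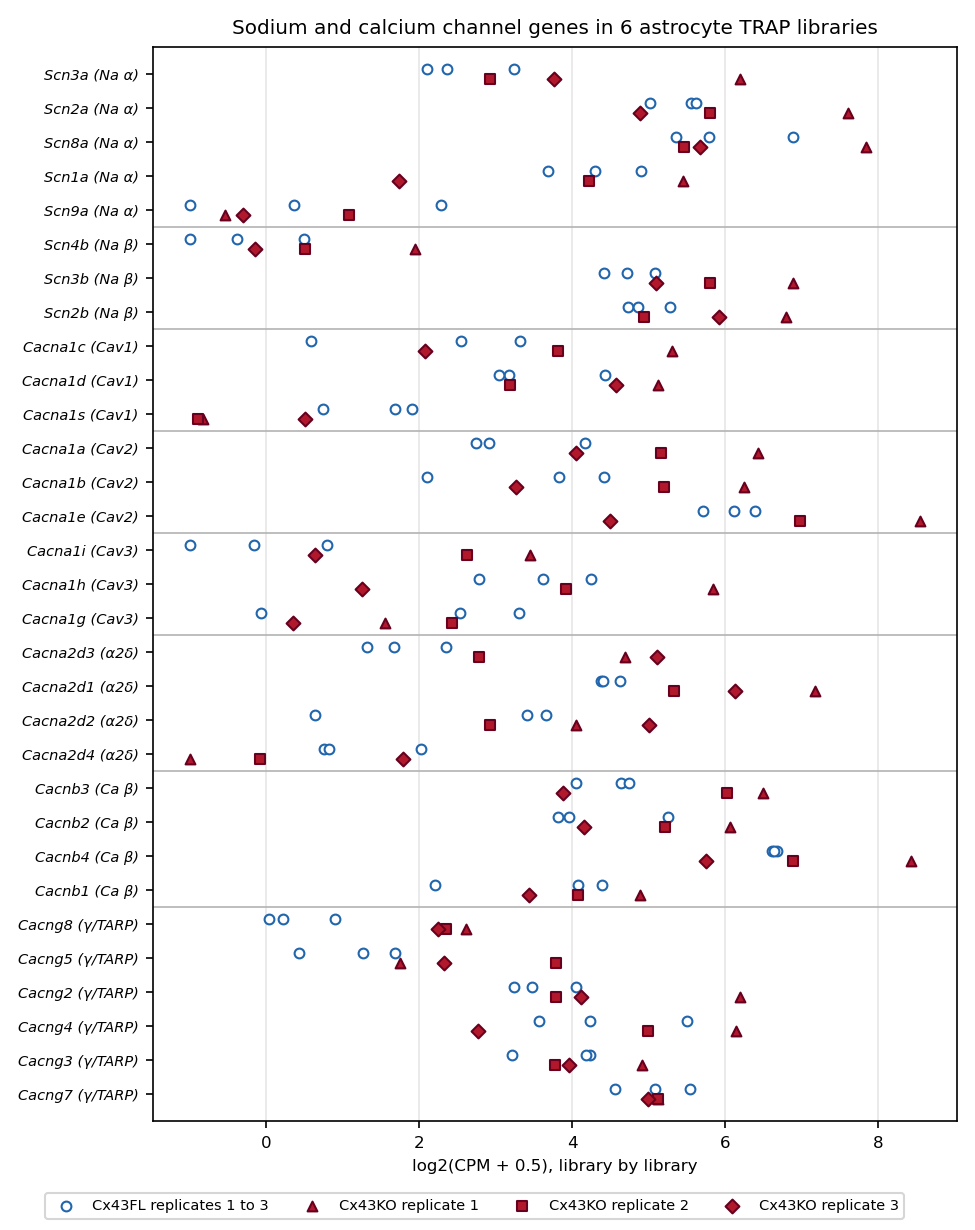
Level of 31 of the tested channel genes in each library, as log2(CPM + 0.5), by class (open circles, Cx43FL; filled symbols, the 3 Cx43KO libraries). Cx43KO replicate 1, the triangle, is the highest of the 6 libraries for 23 of the genes shown, and replicates 2 and 3 lie above all Cx43FL libraries for 14 and 10 of them.

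No channel gene passed a Benjamini-Hochberg adjusted p-value of 0.05 by edgeR's quasi-likelihood test, 0 of 32, and 1 gene in all did so upward (0.00738% of tested genes). Where p-values were left unadjusted, 10 of the 32 were higher in Cx43KO below 0.05 (31.2%, against 5.66% of all tested genes) and 0 were lower (2.67% of all tested genes), where DESeq2 with its prior gave 14 and 0 of 37 (6.55% and 3.09% of its tested genes). The 10 were Scn3a, Scn2b, Scn3b, Cacna1a, Cacna1i, Cacna2d1, Cacna2d3, Cacnb3, Cacng2 and Cacng8. Leaving out 1 library changed this count strongly. It was 3 without Cx43KO replicate 1 (5.17% of all tested genes), namely Cacna2d1, Cacna2d3 and Cacng5. The count was 5 without Cx43FL replicate 2 (3.7%), 5 without Cx43FL replicate 3 (4.76%) and 17 without Cx43KO replicate 3 (8.72%). DESeq2 with its prior, an alternative, called 2 of 37 tested channel genes at an adjusted p-value below 0.05 (0.671% of its tested genes), Cacna2d1 and Cacna2d3, and it called the same 2 without the prior (0.873%). Every Cx43KO library exceeded every Cx43FL library for 6 of the 32 genes (18.8%, against 8.08% of all tested genes), among them Scn3b, Cacna2d1, Cacna2d3, Cacng5 and Cacng8. The reverse held for 1 gene, Cacna1s (3.12%, against 7.45%). For each of these 7 genes the exact 2-sided permutation test gave p = 0.1, the smallest that 3 against 3 libraries allow.

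**Figure D2:**
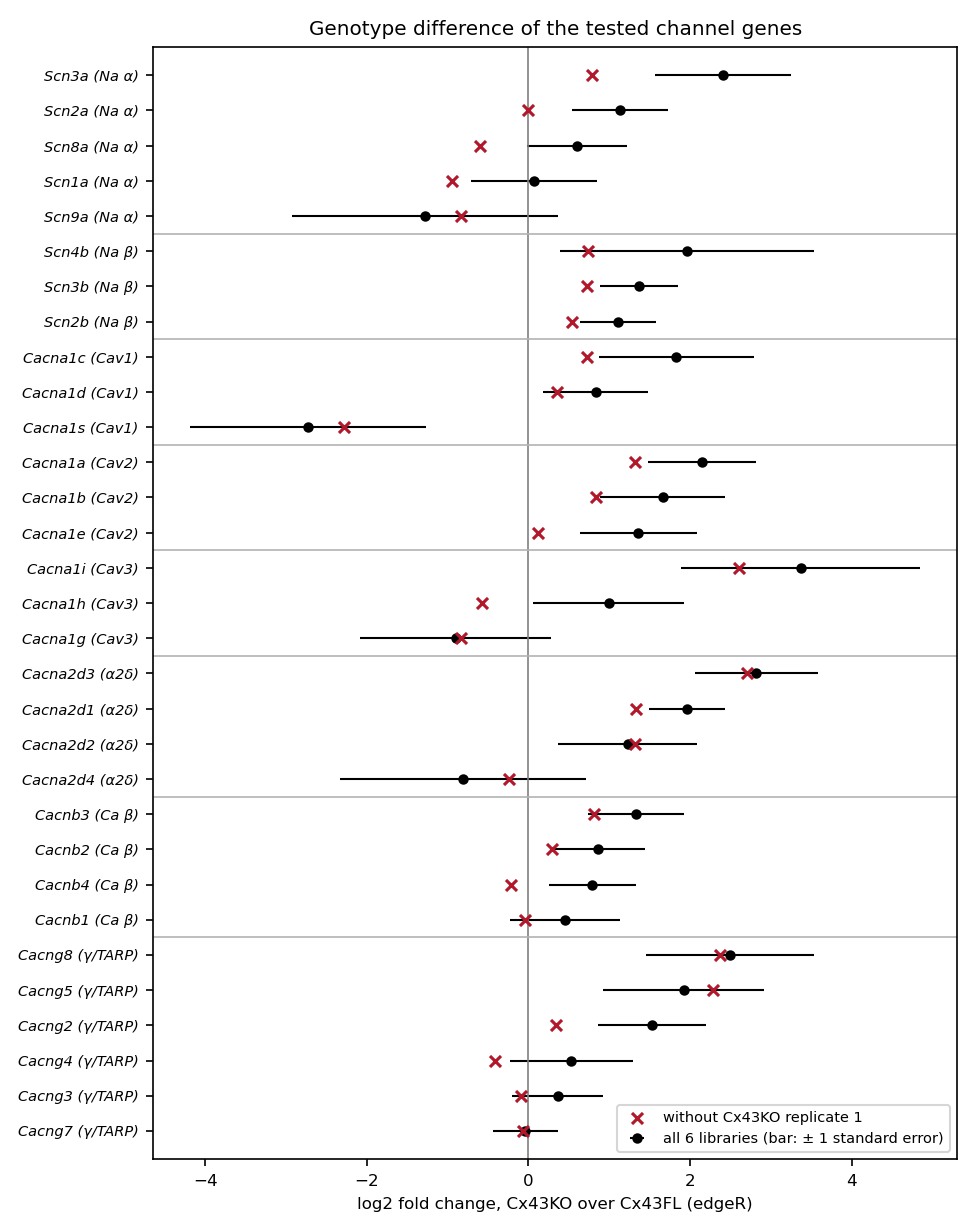
Log2 fold change in Cx43KO over Cx43FL of 31 of the tested channel genes (points, edgeR, 3 libraries per genotype; bars, ± 1 standard error), with the value without Cx43KO replicate 1 as a cross. Cacna2d1 moves from 1.96 to 1.33 and Cacna2d3 from 2.82 to 2.70 when that library is left out, while Scn8a moves from 0.60 to -0.60.

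Levels can be compared between genes only per length, as CPM per kb of the transcript that represents the gene. On this scale the auxiliary subunits led in Cx43FL. The highest mean was that of Cacng7, a TARP, at 15.5 ± 5.25 CPM per kb (SD, n = 3 libraries), followed by Cacnb4, a cytoplasmic calcium channel β subunit, at 12.4 ± 0.283. The libraries of Cacng7 overlapped those of Cacnb4. Cacnb3 had 8.89 ± 2.19 CPM per kb, and all its libraries lay below those of Cacnb4. The most abundant pore subunits were Scn8a at 6.29 ± 3.63, Cacna1e at 5.36 ± 1.23 and Scn2a at 4.75 ± 1.02 CPM per kb, whose spreads overlapped. Among L-type and T-type pores the highest were Cacna1d at 1.54 ± 0.920 and Cacna1h at 1.49 ± 0.739 CPM per kb. Cacna2d1 led the α2δ subunits at 5.60 ± 0.554 CPM per kb, or 2.91 when its longest coding transcript was taken, which still led the class.

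**Figure D3:**
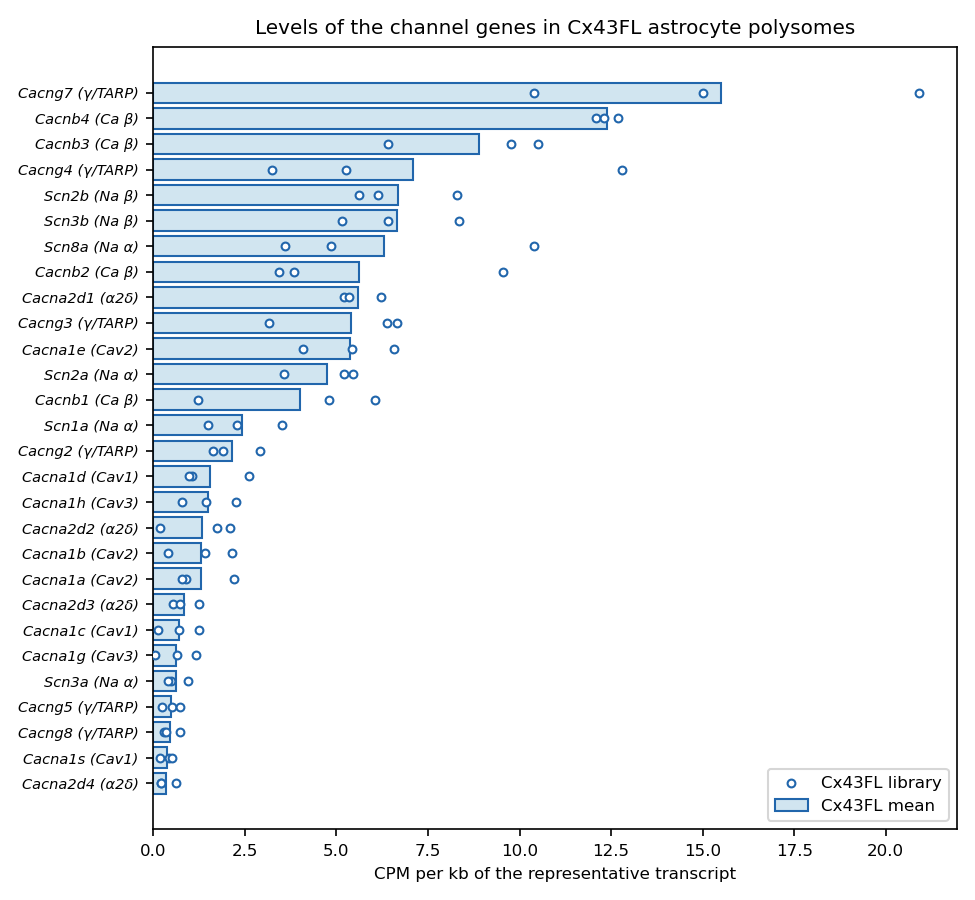
Mean level in Cx43FL of 28 channel genes at 0.3 CPM per kb or more (bars), with the 3 Cx43FL libraries as points. Cacng7 at 15.5 and Cacnb4 at 12.4 CPM per kb lead, and the pore subunits Scn8a, Cacna1e and Scn2a lie between 4.75 and 6.29.

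The pore-forming sodium channel genes overlapped between genotypes as a class. They summed to 110, 201 and 115 CPM in Cx43FL and 540, 126 and 96.3 CPM in Cx43KO. Of 10 genes 5 were tested, and 4 of these had a positive log2 fold change (54.4% of all tested genes), over a range from -1.28 to 2.41. Scn8a encodes Nav1.6, the main channel of the axon initial segment and nodes of adult neurons. It had 40.7, 118 and 54.8 CPM in Cx43FL and 230, 43.8 and 50.5 CPM in Cx43KO, so that only 1 Cx43KO library lay above the Cx43FL range. The log2 fold change was 0.60 (standard error 0.62, edgeR's quasi-likelihood test, Benjamini-Hochberg adjusted p = 0.782). Scn3a, which encodes Nav1.3, best known from the developing brain, had the largest difference of the class. Its levels were 8.96, 4.64 and 3.78 CPM in Cx43FL and 72.7, 7.07 and 13.1 CPM in Cx43KO, with replicate 2 of Cx43KO inside the Cx43FL range. The log2 fold change of Scn3a was 2.41 (standard error 0.84, edgeR adjusted p = 0.540), and 0.79 without Cx43KO replicate 1.

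Scn2a, which encodes Nav1.2, a channel of excitatory neurons, had a log2 fold change of 1.13, and -0.01 without Cx43KO replicate 1. Scn1a, which encodes Nav1.1, a channel of fast-spiking interneurons, had 0.07 and -0.95. Scn9a encodes Nav1.7, known from sensory neurons, and was barely counted. Its levels were 0.79, 0 and 4.36 CPM in Cx43FL and 0.186, 1.61 and 0.309 CPM in Cx43KO, which gave a log2 fold change of -1.28 (standard error 1.65, edgeR adjusted p = 0.828) that was 0.82 without Cx43FL replicate 3. The 5 untested genes include channels of muscle and sensory ganglia, and the sodium-sensing channel gene Scn7a. Scn4a and Scn10a had 0 counts in every library, and Scn11a had 1 count in 1 library. Scn7a had 0 to 15 counts per library. Scn3a, Scn2a, Scn1a, Scn9a and Scn7a lie in a cluster on chromosome 2 of GRCm38, between 65457118 and 66784914, and within it levels in Cx43FL ran from 4.75 CPM per kb for Scn2a to 0.0571 for Scn7a.

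All 4 sodium channel β subunits had positive log2 fold changes (54.4% of all tested genes), and their values without Cx43KO replicate 1 lay between 0.54 and 0.74. That of Scn4b, 1.96 (standard error 1.57), rests on 0 to 54 counts per library. Summed over the class the level was 74.1, 65.3 and 74.9 CPM in Cx43FL and 271, 111 and 113 CPM in Cx43KO, with no overlap between genotypes. Scn3b had 25.8, 20.8 and 33.5 CPM in Cx43FL and 118, 55.1 and 33.6 CPM in Cx43KO, with almost no gap between the nearest libraries. For Scn3b the log2 fold change was 1.37 (standard error 0.48, edgeR adjusted p = 0.540), and 0.73 without Cx43KO replicate 1.

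Scn2b, whose product is joined to the sodium channel α subunit by a disulfide bond, had 38.5, 26.1 and 28.6 CPM in Cx43FL and 111, 30.1 and 60.3 CPM in Cx43KO. One Cx43KO library of Scn2b lay inside the Cx43FL range, and the log2 fold change was 1.11 (standard error 0.47, edgeR adjusted p = 0.581), and 0.54 without Cx43KO replicate 1. Scn4b, the β subunit tied to resurgent current, stayed at 0.912 CPM or less in Cx43FL and reached 3.35 CPM in Cx43KO, with overlap. As a share of the CPM per kb of all 4 β subunits, Scn2b held 17.8% to 39.6% and Scn3b 23.1% to 37.6% over the 6 libraries.

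Calcium channel pore subunits of the Cav2 family, which trigger transmitter release at nerve terminals, were higher in 2 of 3 Cx43KO libraries. The class sum was 79.8, 105 and 88.6 CPM in Cx43FL and 537, 198 and 47.1 CPM in Cx43KO, the last being the lowest of the 6 libraries. Cacna1e, the R-type pore, had 52.0, 83.2 and 68.8 CPM in Cx43FL and 376, 126 and 22.1 CPM in Cx43KO. Its Cx43KO libraries thus lay on both sides of the Cx43FL range, and the log2 fold change of 1.36 (standard error 0.72, edgeR adjusted p = 0.609) was 0.12 without Cx43KO replicate 1. Cacna1a, the P/Q-type pore, had 7.05, 17.5 and 6.19 CPM in Cx43FL and 85.6, 35.4 and 16.0 CPM in Cx43KO. Only the third Cx43KO library of Cacna1a fell within the Cx43FL range. This gave a log2 fold change of 2.15 (standard error 0.67, edgeR adjusted p = 0.520), and 1.32 without Cx43KO replicate 1. Cacna1b, the N-type pore, had a log2 fold change of 1.66 (edgeR adjusted p = 0.600) with overlapping libraries, and 0.83 without Cx43KO replicate 1.

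The L-type pores, which couple depolarization to contraction and to transcription, overlapped between genotypes as a class, with 16.5, 25.3 and 18.4 CPM summed in Cx43FL and 73.4, 22.3 and 28 CPM in Cx43KO. Cacna1d, the Cav1.3 pore, had 8.50, 21.0 and 7.75 CPM in Cx43FL and 34.5, 8.60 and 23.3 CPM in Cx43KO. Its libraries overlapped, and the log2 fold change was 0.83 (standard error 0.65, edgeR adjusted p = 0.708), and 0.35 without Cx43KO replicate 1. Cacna1c, the Cav1.2 pore, had a log2 fold change of 1.83 (edgeR adjusted p = 0.609), again with overlap, and 0.72 without Cx43KO replicate 1. Cacna1s, the pore of skeletal muscle, was the one gene with all Cx43KO libraries below all Cx43FL libraries. It had 2.70, 3.25 and 1.17 CPM in Cx43FL and 0.0621, 0.0402 and 0.926 CPM in Cx43KO, which gave a log2 fold change of -2.73 (standard error 1.46, edgeR adjusted p = 0.609). It was -5.38 without Cx43KO replicate 3, between -3.07 and -2.22 without any other library, and -0.89 by DESeq2 with its prior. These levels rest on 41, 49 and 18 counts in Cx43FL against 1, 1 and 30 in Cx43KO, and 1203 bases of the Cacna1s exons overlap Gm37759 on the other strand, whose reads cannot be told apart from its own since the strand of the counting is not given. Cacna1f, the pore of the retina, had 0 to 3 counts per library and was not tested.

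The T-type pores, which open near the resting potential, were spread widely in both genotypes. Cacna1h, the Cav3.2 pore, had 11.8, 18.5 and 6.38 CPM in Cx43FL and 56.7, 14.6 and 1.88 CPM in Cx43KO, with Cx43KO libraries both above and below the Cx43FL range. Its log2 fold change of 0.99 (standard error 0.93, edgeR adjusted p = 0.755) was -0.58 without Cx43KO replicate 1. Cacna1i, the Cav3.3 pore, had 0.395, 0 and 1.24 CPM in Cx43FL and 10.4, 5.67 and 1.05 CPM in Cx43KO. Cacna1i had the largest log2 fold change of the 32 genes, 3.37 (standard error 1.48, edgeR adjusted p = 0.592), on low counts and with 1 Cx43KO library inside the Cx43FL range. Cacna1g, the Cav3.1 pore, had 5.27, 9.42 and 0.456 CPM in Cx43FL and 2.42, 4.90 and 0.772 CPM in Cx43KO, which gave a log2 fold change of -0.90 (standard error 1.18, edgeR adjusted p = 0.831) with all Cx43KO libraries inside the Cx43FL range.

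The α2δ subunits, extracellular proteins that bring calcium channels to the cell surface, held the genes with the smallest p-values of the set. Cacna2d1 also encodes a receptor for the astrocyte-secreted thrombospondins. It had 24.2, 20.2 and 20.7 CPM in Cx43FL and 144, 39.8 and 69.6 CPM in Cx43KO, so that the lowest Cx43KO library lay well above the highest Cx43FL library. The log2 fold change of Cacna2d1 was 1.96 (standard error 0.47, edgeR adjusted p = 0.490), and it stayed between 1.33 and 2.29 with each library left out. DESeq2 with its prior gave 1.62 with an adjusted p of 0.0185. Cacna2d3 had 4.61, 1.99 and 2.67 CPM in Cx43FL and 25.4, 6.35 and 34.0 CPM in Cx43KO, and here replicate 3 rather than replicate 1 was the highest. For Cacna2d3 the log2 fold change was 2.82 (standard error 0.76, edgeR adjusted p = 0.490), between 2.36 and 3.26 with each library left out, and DESeq2 with its prior gave 1.98 with an adjusted p of 0.0162. Without Cx43KO replicate 1 the edgeR values were 1.33 for Cacna2d1 and 2.70 for Cacna2d3. Both genes and Cacng8 are on the list of upregulated transcripts that the study drew from these same libraries, which is therefore not independent evidence of their direction.

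The other α2δ genes overlapped between genotypes. Cacna2d2, a subunit of cerebellar and other neurons, had a log2 fold change of 1.23 (standard error 0.86, edgeR adjusted p = 0.677), whose difference from the others was not tested. Cacna2d4, known from the retina, had -0.81 (edgeR adjusted p = 0.889) and 0 CPM in Cx43KO replicate 1. Within the class, Cacna2d1 held 60.9% to 84.7% of the α2δ CPM per kb in Cx43FL and 54.2% to 79.3% in Cx43KO, and Cacna2d3 held 8.24% to 13.2% and 12.9% to 27.8%. The class sum was 40.1, 24.5 and 39.1 CPM in Cx43FL and 185, 53.7 and 138 CPM in Cx43KO, without overlap.

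The sequences just upstream of Cacna2d1 and Cacna2d3 are shown because these genes carry the clearest difference. The 250 bases before the RefSeq start are given for GRCm38.p6, chr5:15934441-15934690 on the plus strand for Cacna2d1 and chr14:29721865-29722114 on the minus strand for Cacna2d3, 5′ to 3′ in the direction of the gene. Capitals mark the GC box GGGCGG, read on either strand.
Cacna2d1: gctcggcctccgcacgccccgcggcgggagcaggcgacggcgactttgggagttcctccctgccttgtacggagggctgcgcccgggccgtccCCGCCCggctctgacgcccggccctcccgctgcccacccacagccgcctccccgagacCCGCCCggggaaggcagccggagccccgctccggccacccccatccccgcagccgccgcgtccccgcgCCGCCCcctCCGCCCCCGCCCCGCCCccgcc
Cacna2d3: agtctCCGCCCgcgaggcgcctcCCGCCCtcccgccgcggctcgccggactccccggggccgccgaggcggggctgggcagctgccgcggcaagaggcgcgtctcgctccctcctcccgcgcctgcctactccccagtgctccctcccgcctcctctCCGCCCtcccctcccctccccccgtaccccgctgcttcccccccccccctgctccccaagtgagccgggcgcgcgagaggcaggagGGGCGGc
Both stretches were rich in G and C, at 82.4% for Cacna2d1 with 36 CpG and at 80.0% for Cacna2d3 with 30 CpG. The GC box was found 6 times in the first and 4 times in the second. It was present in 15 of the 41 upstream stretches that RefSeq gives for 30 of the channel genes, and in 32.7% of all 32851 stretches of the same length, so that its presence does not set these genes apart. The TATA box letters TATAAA, on either strand, were in 2 of the 41, those of Cacna1d and Scn2a, and in 12.4% of all, and neither stretch shown holds them. The CRE letters TGACGTCA were in 0 of 41 (1.55% of all), as was the RE1 motif (0.0578% of all). The median CpG number was 8 over the channel genes and 6 over all stretches. These matches describe letters and not bound sites.

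Calcium channel β subunits, cytoplasmic proteins that help the pore leave the endoplasmic reticulum, summed to 143, 168 and 161 CPM in Cx43FL and 532, 236 and 95.2 CPM in Cx43KO. The third Cx43KO library was thus the lowest of the 6. Cacnb4 was the steadiest gene in Cx43FL, with 97.5, 102 and 99.1 CPM, and had 346, 118 and 53.4 CPM in Cx43KO. Its Cx43KO libraries lay on both sides of that narrow range, and the log2 fold change of 0.79 (standard error 0.54, edgeR adjusted p = 0.667) was -0.22 without Cx43KO replicate 1. Exons of Cacnb4 share 1433 bases with A430018G15Rik on the other strand, so that reads of the pair cannot be told apart. Cacnb3 had 16.1, 24.5 and 26.4 CPM in Cx43FL and 89.5, 64.5 and 14.2 CPM in Cx43KO. The first pair of Cx43KO libraries of Cacnb3 lay above and the third below the Cx43FL range, and its log2 fold change was 1.33 (standard error 0.59, edgeR adjusted p = 0.592), and 0.81 without Cx43KO replicate 1. Cacnb1, the skeletal muscle β subunit, and Cacnb2, the main cardiac one, had log2 fold changes of 0.45 and 0.86 with overlapping libraries.

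The γ subunits and TARPs divided by level and by difference. Cacng7, the most abundant channel-family gene per kb, hardly differed, with 33.3, 46.2 and 23.1 CPM in Cx43FL and 34.3, 34.4 and 31.2 CPM in Cx43KO. All Cx43KO libraries lay inside the Cx43FL range, and the log2 fold change was -0.04 (standard error 0.40, edgeR adjusted p = 0.988), which corresponds to no direction. Its neighbour on chromosome 7, Cacng8, encodes a TARP abundant in the hippocampus. Cacng8 had 0.527, 0.663 and 1.37 CPM in Cx43FL and 5.59, 4.62 and 4.26 CPM in Cx43KO, with closely similar Cx43KO libraries that all lay above the Cx43FL range. For Cacng8 the log2 fold change was 2.49 (standard error 1.04, edgeR adjusted p = 0.572), and 2.37 without Cx43KO replicate 1. Cacng5, another TARP, had 1.91, 2.72 and 0.847 CPM in Cx43FL and 2.86, 13.3 and 4.51 CPM in Cx43KO. Here replicate 2 was the highest, and the log2 fold change was 1.92 (standard error 1, edgeR adjusted p = 0.609), and 2.28 without Cx43KO replicate 1.

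Cacng2 encodes stargazin, the founding TARP. It had 16.0, 8.95 and 10.6 CPM in Cx43FL and 72.9, 13.3 and 16.8 CPM in Cx43KO, with 1 Cx43KO library inside the Cx43FL range. Stargazin mRNA had a log2 fold change of 1.53 (standard error 0.67, edgeR adjusted p = 0.592), and 0.34 without Cx43KO replicate 1. Cacng3 and Cacng4, both TARPs, had 0.36 and 0.53, with overlap, and the sign of both was negative without that library. Cacng6 had 0 to 34 counts per library and Cacng1, the skeletal muscle γ subunit, had 0 counts, and neither was tested. The class sum of 81.7, 112 and 72.1 CPM in Cx43FL and 217, 110 and 78.0 CPM in Cx43KO overlapped.

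**Figure D4:**
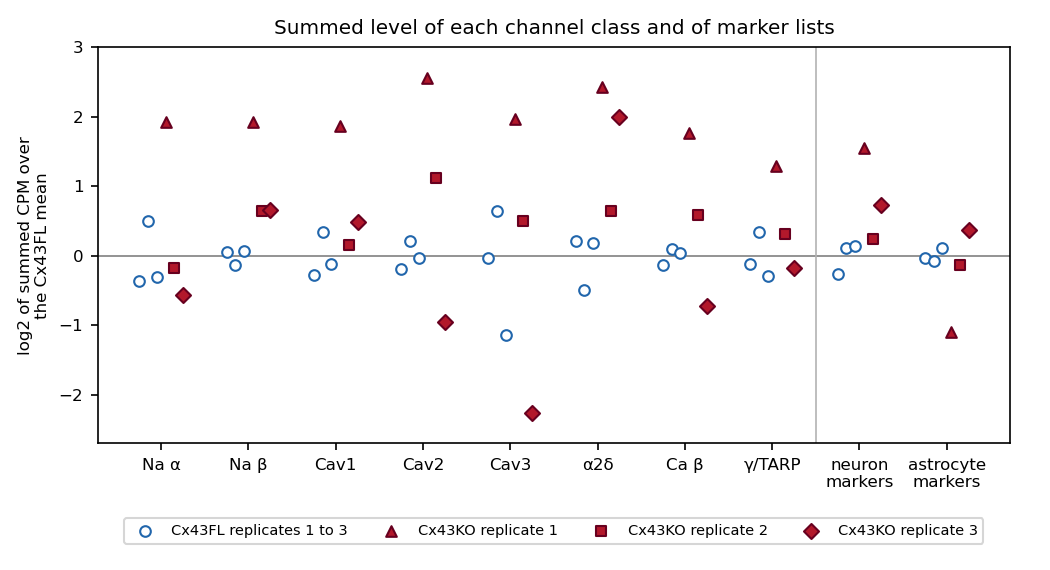
Summed CPM of each channel class in each library, as log2 of the ratio to the Cx43FL mean, beside the summed neuron and astrocyte markers (open circles, Cx43FL; filled symbols, Cx43KO). Cx43KO replicate 1 (triangle) is highest in every channel class and in neuron markers and lowest in astrocyte markers, and among the channel classes the sodium β and α2δ subunits have all Cx43KO libraries above Cx43FL, as do the neuron markers.

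Cx43KO replicate 1 was highest in neuron markers, in oligodendrocyte markers and in the channel sum. In Cx43KO replicate 3 the neuron marker sum of 4808 CPM, of which Snap25 held 2791 CPM, lay above the Cx43FL range. The channel sum of 599 CPM in that library lay within the Cx43FL range. Each level was also expressed per 1000 CPM of summed neuron markers in the same library, as a description without a test. On that scale 29 of the 32 genes overlapped between genotypes, 2 lay above and 1 below. Without the scaling 6 lay above and 1 below. The divisor was higher in every Cx43KO library than in any Cx43FL library, which lowers Cx43KO values against Cx43FL for any gene. The smaller number above on this scale thus follows in part from the divisor, and no conclusion is drawn from it. The share over all tested genes was not computed on this scale. Cacna2d1 remained apart, with 10.1, 6.5 and 6.52 in Cx43FL against 16.9, 11.7 and 14.5 in Cx43KO, and Cacng8 with 0.219, 0.213 and 0.431 against 0.656, 1.35 and 0.886. Cacna1s stayed lower, with 1.12, 1.04 and 0.369 against 0.00729, 0.0118 and 0.193. Cacna2d3, Cacng5 and Scn3b overlapped on this scale. For Cacna2d3, with 1.92, 0.639 and 0.841 against 2.98, 1.86 and 7.06, the overlap was narrow, 1.86 in Cx43KO replicate 2 against 1.92 in Cx43FL replicate 1.

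Genes that anchor or modulate sodium channels were also mostly higher in Cx43KO. Of 15 tested, edgeR gave 5 an unadjusted p-value below 0.05 on the higher side in Cx43KO and 0 on the lower (5.66% of all tested genes were higher), and the median log2 fold change was 0.85, or 0.14 without Cx43KO replicate 1, where the count was again 5 of 15 higher (5.17% of all tested genes). Nfasc, the adhesion protein neurofascin of the axon initial segment and node, had a log2 fold change of 1.78 (edgeR adjusted p = 0.490). Nrcam, another adhesion protein of the node, had 1.17, Cntn1, encoding contactin 1, had 0.99, and Nedd4l, a ubiquitin ligase that removes sodium channels from the membrane, had 1.63. Nalcn, the sodium leak channel, had the largest difference of the list, with 5.86, 7.03 and 9.77 CPM in Cx43FL and 50.7, 40.1 and 16.6 CPM in Cx43KO, which gave a log2 fold change of 2.24 (edgeR adjusted p = 0.490). Ank2, encoding ankyrin B, had the lowest value, -0.37.

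Among partners of calcium channels, such as release-site proteins and channel regulators, 0 of 15 tested passed an unadjusted p-value of 0.05 by edgeR, and 0 of 18 by DESeq2 with its prior, in either direction (5.66% higher and 2.67% lower over all genes by edgeR, 6.55% and 3.09% by DESeq2). They had log2 fold changes from -1.57 for Cabp1, a calcium-binding protein, to 2.59 for Rimbp2, which ties calcium channels to release sites. The value of Rimbp2 rests on Cx43KO replicate 1, with 6.98, 0.73 and 5.41 CPM in Cx43FL against 75.7, 2.01 and 1.48 CPM in Cx43KO. Without that library 2 of 15 were higher (5.17% of all tested genes) and 1 lower (3.44%).

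Genes of calcium stores, pumps and exchangers were mostly higher. Of 18 tested, 9 were higher at an unadjusted p-value below 0.05 by edgeR (5.66% of all tested genes) and 0 lower (2.67%), with a median log2 fold change of 1.37. Without Cx43KO replicate 1 it was 2 of 19 (5.17% of all tested genes) with a median of 0.55. Slc8a2, a sodium-calcium exchanger, had 5.01, 4.78 and 5.67 CPM in Cx43FL and 70.5, 24.6 and 23.9 CPM in Cx43KO, with a wide gap between genotypes and a log2 fold change of 2.94 (edgeR adjusted p = 0.490). The store release channels Itpr1 and Ryr2 had 1.48 and 1.95, and the store sensors Stim1 and Stim2 had 1.88 and 1.94. The reticulum pump Atp2a2 had 0.78, and the plasma membrane calcium pumps Atp2b1, Atp2b2 and Atp2b3 had 1.18, 1.60 and 2.01. Itpr2, the main store release channel of astrocytes, had 12.5, 22.6 and 16.8 CPM in Cx43FL and 11.1, 27.9 and 29.9 CPM in Cx43KO, which gave a log2 fold change of 0.41 (edgeR adjusted p = 0.831). The lowest value was that of Orai1, a store-operated channel, at -0.66. By edgeR 0 genes of these 3 lists passed the adjustment (0.00738% of all tested genes were called higher). DESeq2 with its prior called Nalcn and Nfasc of 15 anchors and modulators, 0 of 18 partners, and Slc8a2 and Atp2b3 of 21 in the last list. Over all its tested genes it called 0.671% higher. Which of these values come with the neuron marker RNA of the libraries was not tested.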

How the data were processed

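Raw read counts on Ensembl transcripts were deposited by the authors for 6 TRAP libraries. Per the labels, RNA was amplified with an Ovation kit, the submitters' processing notes name bcl2fastq 1.8.4, STAR and HTSeq 0.5.3, and the build was mm10. The authors removed reads that map more than once. Isoforms share reads in these counts, and the strand setting is not given in the sources used here, so that reads of overlapping genes cannot be told apart. Besides the overlaps named in the results, exons of Scn9a, Cacna1a, Cacna1d, Cacna1h, Cacna2d2, Cacnb2 and Cacng2 share 82 to 323 bases with a gene on the other strand, and those of Cacng8 share 91 bases with one on the same strand. Transcripts were matched to genes (73157 of 75466), and the transcript with the highest total over the 6 libraries represented each gene. The unmatched ones held 1.60% to 1.78% of the counts.

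Genotypes were compared across all genes with edgeR 4.0.16 in R 4.3.3 (TMM, filterByExpr, quasi-likelihood F test, Benjamini-Hochberg adjustment), genotype alone in the model. Genes were called at an adjusted p-value below 0.05 where the higher group had a mean above 50 normalized counts. The standard error is the absolute log2 fold change over the root of F. The test was tested on simulated data. Single genes were compared by exact permutation on log2(CPM + 0.5), and DESeq2 1.42.0, other scalings and filters, summed transcripts and omission of each library were alternatives. The longest coding transcript was an alternative chosen after seeing the data. Values in every library are printed for the highest gene per kb in each class, genes past an unadjusted p-value of 0.05, genes without overlap, and the 3 largest differences each way. From each list of partner genes those past that p-value and the extremes are named. Members and lists were chosen with earlier results of these data known. No pair of libraries agreed within sampling noise (chi-square per degree of freedom 33.7 or more). The limit of 3 counts is one of counting error alone, because PCR copies of a molecule are counted separately. Results for some genes covered by these rules are not reported here.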

Additional observations from a re-analysis of the deposited data

How the results depend on the processing

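The depth and the 3 libraries per genotype limit what can be seen for genes near 1 CPM, and 8 of the 40 genes had too few counts to be tested. The number of channel genes called higher in Cx43KO was 0 of 32 under edgeR (0.00738% of all tested genes). Under DESeq2 it was 2 of 37, with its prior (0.671%) and without it (0.873%). With each library left out the number at an unadjusted p-value below 0.05 ranged from 3 to 17 of 32 higher and from 0 to 1 lower. Over all tested genes the shares ranged from 3.38% to 8.72% higher and from 1.23% to 5.17% lower. The 1 lower arose without Cx43KO replicate 3, where 5.17% of all tested genes were lower. Adding up all transcripts also gave 1 lower, and the share over all genes was not computed there. The replicate numbers of the labels did not pair the libraries (correlations of -0.0389 to -0.00706), and in a fit with that number as a block 5 genes were higher (4.33% of all tested genes). Of 473 values of single genes under the alternatives, 454 kept direction and side of the threshold, 4 passed it, 0 lost it and 15 changed sign, over 10 genes. The 4 were Cacna2d1 and Cacna2d3 under DESeq2.

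With each library left out, log2 fold changes that changed sign ranged from -0.22 to 1.22 for Cacnb4, -0.41 to 1.26 for Cacng4, -0.04 to 0.86 for Cacnb1, -0.60 to 1.16 for Scn8a, -0.58 to 1.54 for Cacna1h, -0.95 to 0.59 for Scn1a, -0.09 to 0.57 for Cacng3, -0.01 to 1.55 for Scn2a, -0.26 to 0.23 for Cacng7 and -2.75 to 0.82 for Scn9a. Scn1a was also -0.02 with upper-quartile factors and -0.57 with the replicate block, and Cacng7 was 0.02 with that block. The cause was not tested.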
